A study of Mus musculus with 6 samples.

Results

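The glycolytic pathway and its transport steps were followed in mouse primary hippocampal neurons exposed to apolipoprotein E (apoE) particles from 2 kinds of glial cell. The set held 34 genes, from glucose transporters through the glycolytic enzymes to lactate transport and pyruvate dehydrogenase. They were chosen by gene name, with earlier results of these data known. A gene was tested when its linear value, 2 to the power of the deposited log2 value, was about 10 or more in at least 3 libraries, which all 34 reached, out of 15059 genes that passed the same filter and 47593 symbols in all. Members lay far above that bound except the monocarboxylate transporter Slc16a3, at 3.49 to 3.52, and the muscle enolase Eno3, at 4.51 to 4.56, and no listed member fell below it. In one group the neurons, of wild-type mice, received microglial apoE particles at 6 µg/mL for 24 h from culture day 10, and in the other they received astrocytic apoE particles at the same dose and time (n = 3 libraries each). All cultures were kept in Neurobasal with B27 and GlutaMAX. Untreated neurons were not analysed here, so a direction is always microglial relative to astrocytic apoE, and no label states that libraries within a group were made from different cultures or mice. What the p-values weigh is thus the spread between libraries, possibly a technical one.

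Glycolysis splits glucose into pyruvate, which is either reduced to lactate and exported or oxidized in mitochondria after passing pyruvate dehydrogenase. Several steps are catalysed by alternative isoforms with different cell preferences in brain: aldolase C is enriched in astrocytes, enolase 2 and the glucose transporter encoded by Slc2a3 in neurons. Astrocytes are held to be the more glycolytic cells and to export lactate that neurons can take up. Many genes of the pathway are also targets of hypoxia-inducible factor, the transcription factor that adjusts metabolism to low oxygen.

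Each gene has 1 deposited value per library, on a log2 scale. Exactly 0 was listed for 21031 symbols in all 6 libraries and for 0 symbols in only some of them, a pattern of a regularized logarithm, although no label names the transformation. The depth of each library is unknown, and the sum of linear values of 18060500 to 18337600 is a common scale and no read total. A regularized logarithm shrinks differences and spread at low levels, and whether it was used here is inferred and not stated. The SD within a group was smaller than counting error would be, taking linear values as counts, for all 14 members with a mean value under 10 and for 23 of the 34. SEs and p-values of those members may therefore be too small. Neuronal markers were high, with Map2, the gene of a dendritic protein, at 14.56, 14.47 and 14.55 with microglial apoE and 14.64, 14.64 and 14.61 with astrocytic apoE. Of the 18 neuronal markers tested 2 rose and 7 fell, where 13.0% of all tested genes rose and 11.8% fell. These markers summed to 107350 to 107520 with microglial and 109040 to 109740 with astrocytic apoE on the linear scale. Mitochondrially encoded genes took 5.71% to 5.77% of the sum in microglial apoE libraries and 6.45% to 7.91% in astrocytic ones.

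With microglial apoE, 9 of the 34 members rose and 8 fell in limma (adjusted p under 0.05 over all 15059 genes). Those that rose were the glucose transporters Slc2a1 and Slc2a3, hexokinase 2 (Hk2), the isomerase Gpi1, the phosphofructokinase regulator Pfkfb3, aldolase A (Aldoa), Gapdh, enolase 1 (Eno1) and the pyruvate dehydrogenase kinase Pdk3. Aldolase C (Aldoc), Tpi1, Bpgm, Ldhb, Slc16a1, Pdk1, Pdk2 and Pdk4 fell. The share of all tested genes called was 24.8% in either direction, 13.0% higher and 11.8% lower, against 50%, 26.5% and 23.5% of the members. Members are more abundant than most genes: 25 of them had a mean value of 9 or more, and 14 of these (56.0%) were called, where 30.4% of all 7121 genes at that level were. Differences were small, with 12 of the 17 called members under 0.20 on the log2 scale. The members' median was -0.010 and that of all tested genes -0.00057, while the median size regardless of sign was 0.073 for the members and 0.041 for all tested genes.

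All 17 called members had libraries that did not overlap between groups, as did 8 members that were not called, 25 in all (73.5%), where 38.9% of all tested genes did not overlap, and 45.0% of those at a mean value of 9 or more. The calls depended on scaling and on single libraries. With the sum of linear values made equal, 10 members were higher and 5 lower. Over all genes the split was 1962 higher and 1780 lower as deposited, 1479 and 2767 with median centring, 2516 and 1318 with equal sums, and 1661 and 2327 with equal sums without mitochondrial genes. Without microglial replicate 3 the count of lower members was 4, and it was 5 without microglial replicate 1 or without astrocytic replicate 2. Slc2a1, Hk2, Gpi1, Pfkfb3, Aldoa, Eno1, Aldoc, Slc16a1, Pdk1 and Pdk4 kept their call and direction in all 13 alternatives.

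**Figure D1:**
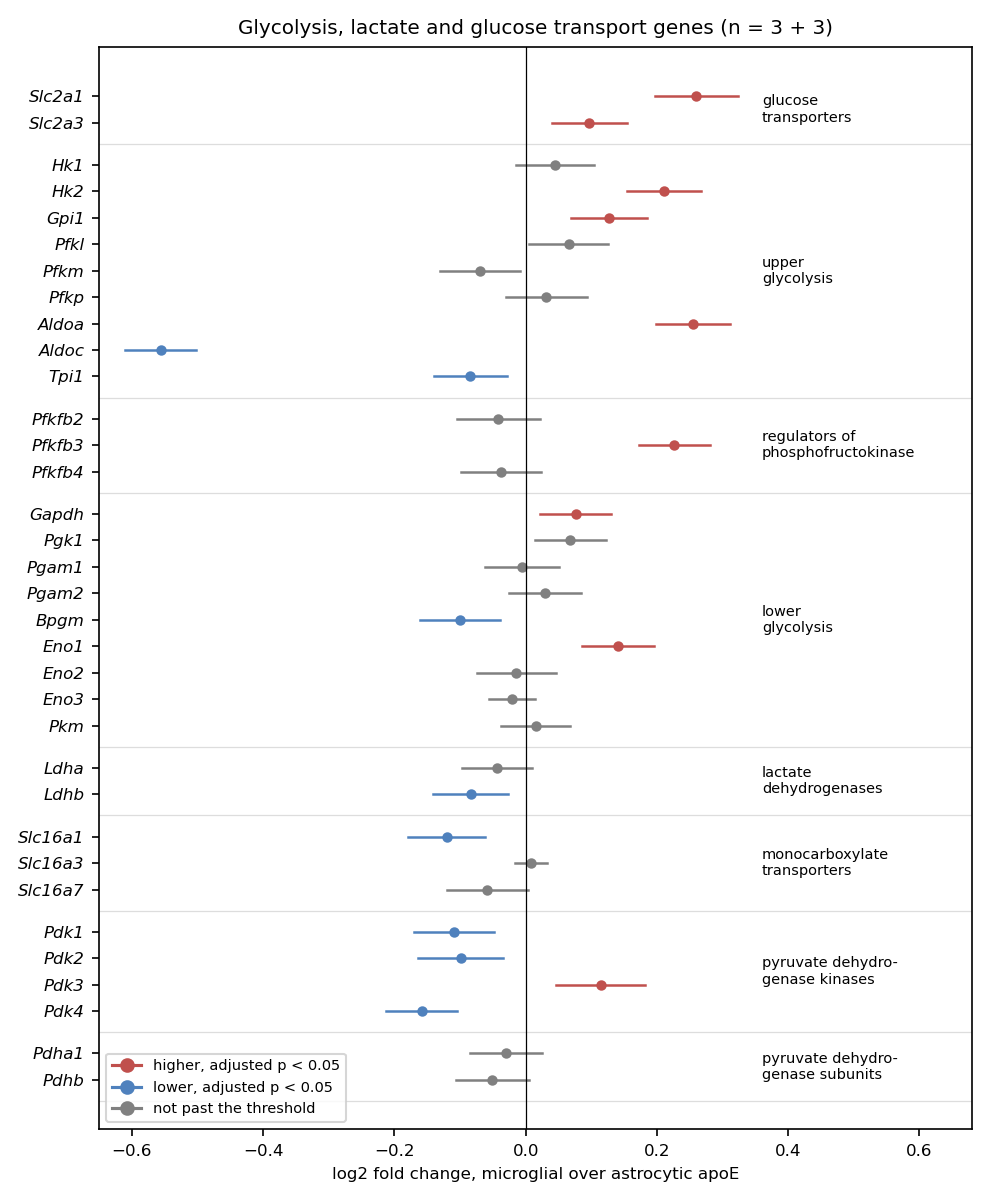
Log2 fold change of each of the 34 genes, microglial over astrocytic apoE (x axis, log2), grouped from glucose entry at the top to pyruvate dehydrogenase at the bottom. Points are limma estimates from 3 + 3 libraries and lines 95% intervals. Aldoc, at -0.56, stands apart from the other members, which lie between -0.16 and 0.26.

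Promoter windows of 5 called members are shown because hypoxia-inducible factor is known to act on several of these genes and because Aldoa and Aldoc, like Hk2 and Pdk1, moved in opposite directions. The sequences are the 250 bases before an annotated start, from RefSeq on GRCm38.p6, written 5′ to 3′ on the strand of the gene, and capitals mark each ACGTG or GCGTG, the core motif of the factor, on either strand.
Slc2a1: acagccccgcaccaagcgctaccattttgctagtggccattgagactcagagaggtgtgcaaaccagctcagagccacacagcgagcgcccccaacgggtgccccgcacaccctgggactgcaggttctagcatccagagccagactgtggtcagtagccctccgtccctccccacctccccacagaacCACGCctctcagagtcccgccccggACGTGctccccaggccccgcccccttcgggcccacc
Hk2: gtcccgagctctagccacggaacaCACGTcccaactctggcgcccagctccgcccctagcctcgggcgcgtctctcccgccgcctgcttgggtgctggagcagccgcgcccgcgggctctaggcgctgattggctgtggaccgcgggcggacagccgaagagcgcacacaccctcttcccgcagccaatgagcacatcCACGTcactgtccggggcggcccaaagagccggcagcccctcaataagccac
Aldoa: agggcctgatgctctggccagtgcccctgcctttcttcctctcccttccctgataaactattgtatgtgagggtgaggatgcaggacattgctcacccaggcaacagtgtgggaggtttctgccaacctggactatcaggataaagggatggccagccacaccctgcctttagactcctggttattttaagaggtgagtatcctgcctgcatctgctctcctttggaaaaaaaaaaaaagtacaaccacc
Aldoc: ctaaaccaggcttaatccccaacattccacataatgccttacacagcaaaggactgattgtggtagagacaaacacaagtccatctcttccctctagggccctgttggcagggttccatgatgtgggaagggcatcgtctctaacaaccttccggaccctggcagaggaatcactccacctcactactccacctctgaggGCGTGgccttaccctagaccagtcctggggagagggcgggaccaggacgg
Pdk1: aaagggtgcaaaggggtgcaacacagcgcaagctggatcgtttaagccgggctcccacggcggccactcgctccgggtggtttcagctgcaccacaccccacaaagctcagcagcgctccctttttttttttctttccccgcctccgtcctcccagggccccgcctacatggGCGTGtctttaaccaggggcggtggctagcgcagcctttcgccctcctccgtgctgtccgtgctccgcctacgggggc
These windows lie at chr4:119108495-119108744, plus strand (Slc2a1), chr6:82774455-82774704, minus strand (Hk2), chr7:126800448-126800697, minus strand (Aldoa), chr11:78322823-78323072, plus strand (Aldoc) and chr2:71872974-71873223, plus strand (Pdk1). Slc2a1 and Hk2 held 2 matches each, Aldoc and Pdk1 held 1 each, and the Aldoa window held 0. That window is the first of 3 listed for Aldoa, and 2 of the 3 held a match. By the gene positions used here, it lies inside an annotated Aldoa locus and not upstream of it. The Aldoc and Slc2a1 windows run past the outermost annotated base into their genes, and the Aldoc match lies inside the gene. Over all windows of a gene, a match was found in 7 of 8 members that rose, 6 of 8 that fell and 14 of 16 that were not called, for the 32 members in the table. A match stood in 61.1% of the 10796 tested genes listed there and in 38.6% of all 32851 windows. Slc2a3 and Slc16a7 have no entry in that table. A match describes letters in a window and is not evidence of binding.

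Glucose enters brain cells mainly through the transporters encoded by Slc2a1, the form of endothelium and glia, and Slc2a3, the neuronal form, and both transcripts rose. Slc2a1 (chromosome 4, 119108711 to 119137983, GRCm38) stood at 9.26, 9.30 and 9.25 in the microglial apoE libraries and at 9.001, 8.99 and 9.05 in the astrocytic apoE libraries, on the deposited log2 scale. It was the member with the highest log2 fold change, a 1.198-fold difference (0.26 ± 0.030 SE as log2 fold change, with adjusted p = 3.7e-07 in limma). Every microglial apoE library was above every astrocytic one, and the gap between the groups exceeded the range within either. Endothelial markers were scarce in these libraries: Cldn5, a tight junction protein of brain endothelium, lay near -1.49 in all 6, the adhesion molecule Pecam1 at 3.26 to 3.30, and the 14 endothelial and mural markers summed to 1838 to 1897 with microglial and 1663 to 1697 with astrocytic apoE on the linear scale. Of the 5 that were tested, the contractile genes Acta2 and Tagln rose, where 13.0% of all tested genes rose. The part of such cells in the value of Slc2a1 was not tested. Slc2a3 had values of 11.05, 11.06 and 11.07 with microglial apoE and 11.001, 10.93 and 10.96 with astrocytic apoE (0.10 ± 0.028 SE as log2 fold change, with adjusted p = 0.012 in limma). Its smaller rise was lost without microglial replicate 3 (adjusted p = 0.052) and without astrocytic replicate 2 (adjusted p = 0.10).

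Hexokinases trap glucose in the cell as glucose 6-phosphate. Hk2, the inducible form, rose 1.16-fold, with 7.35, 7.34 and 7.34 in microglial apoE libraries and 7.12, 7.16 and 7.12 in astrocytic apoE libraries (0.21 ± 0.027 SE as log2 fold change, with adjusted p = 2.0e-06 in limma). All microglial values lay above all astrocytic ones, with 0.0145 as the SD within groups, below the 0.117 that counting alone would give at this level. Hk1, the main form of brain, had 11.95, 11.95 and 11.91 with microglial and 11.85, 11.89 and 11.95 with astrocytic apoE. These ranges overlapped and Hk1 did not pass (log2 fold change 0.04, 95% interval -0.015 to 0.10, limma adjusted p = 0.28), although it did without astrocytic replicate 3 (adjusted p = 0.046). Per kilobase of merged exons, on the linear scale, Hk1 remained the more abundant form in both groups, at 459.6 ± 7.76 against 27.2 ± 0.112 for Hk2 with microglial apoE and 445.9 ± 15.6 against 23.51 ± 0.321 with astrocytic apoE (SD, n = 3). Gpi1, which turns glucose 6-phosphate into fructose 6-phosphate, rose 1.09-fold, at 12.41, 12.46 and 12.43 with microglial and 12.26, 12.30 and 12.36 with astrocytic apoE (0.13 ± 0.028 SE as log2 fold change, with adjusted p = 0.0015 in limma). Its astrocytic replicate 3 lay closest to the microglial libraries, without overlap.

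Phosphofructokinase commits sugar to glycolysis, and none of its 3 subunit genes passed in limma. The liver subunit Pfkl had a log2 fold change of 0.07 (95% interval 0.0051 to 0.13, adjusted p = 0.11), with libraries that did not overlap. The muscle subunit Pfkm was at 11.30, 11.34 and 11.27 with microglial apoE and 11.36, 11.34 and 11.42 with astrocytic apoE (log2 fold change -0.07, limma adjusted p = 0.085). It passed as lower with median centring (adjusted p = 0.024), with equal sums leaving out mitochondrial genes (adjusted p = 0.043) and without microglial replicate 2 (adjusted p = 0.037). For the platelet subunit Pfkp the log2 fold change was 0.03 (95% interval -0.030 to 0.093, adjusted p = 0.48). The Pfkfb enzymes make and break fructose 2,6-bisphosphate, the strongest activator of phosphofructokinase. Pfkfb3, the form with the highest ratio of kinase to phosphatase activity, rose 1.17-fold (0.23 ± 0.026 SE as log2 fold change, with adjusted p = 3.2e-07 in limma). It had 11.91, 11.90 and 11.91 in microglial apoE libraries and 11.67, 11.67 and 11.70 in astrocytic apoE libraries. The 3 values within each group lay within 0.04 of each other, while the groups were separated by about 0.20 or more. Pfkfb2 (log2 fold change -0.042, adjusted p = 0.34) and Pfkfb4 (log2 fold change -0.037, adjusted p = 0.39) were not called. Both stood at values of 7.67 to 8.02, and in both the libraries did not overlap between groups, but only barely. The highest microglial and lowest astrocytic values were 7.686 and 7.691 for Pfkfb2 and 7.9796 and 7.9805 for Pfkfb4. These gaps were smaller than the SD within groups.

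Aldolase splits fructose 1,6-bisphosphate, and its 2 brain isoforms moved in opposite directions. Aldoc, the astrocyte-enriched form on chromosome 11, 78322968 to 78327781, had the lowest log2 fold change of the set and fell by 0.56 on the log2 scale, or 1.47-fold (SE 0.026, limma adjusted p = 1.0e-14). Its values were 11.70, 11.73 and 11.68 with microglial apoE and 12.24, 12.27 and 12.26 with astrocytic apoE, groups far apart relative to the spread within each. Aldoa (chromosome 7, minus strand, annotated as 2 adjacent loci from 126795234 on), the form found in most cells, stood at 13.17, 13.25 and 13.21 with microglial and 12.93, 12.95 and 12.98 with astrocytic apoE. It rose 1.19-fold (0.25 ± 0.027 SE as log2 fold change, with adjusted p = 8.7e-08 in limma). Per kilobase of merged exons, Aldoc was at 1021 ± 16.2 and Aldoa at 2555 ± 75.5 with microglial apoE, and at 1502 ± 12.4 and 2141 ± 35.1 with astrocytic apoE (linear values, SD, n = 3). Aldoa was thus the more abundant form per length in both groups.

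The fall of Aldoc ran beside a fall of other astrocyte transcripts. Of 19 tested astrocyte markers of 20, chosen without Aldoc, 15 fell and 1 rose, and their median was -0.18 on the log2 scale. For this and the marker sets below, the shares among all tested genes were 13.0% higher and 11.8% lower. The 20 markers summed to 91176 to 91977 with microglial and 105920 to 106130 with astrocytic apoE on the linear scale, and 0 of them were listed at 0. Gfap, the intermediate filament of astrocytes, was at 11.92, 11.93 and 11.90 with microglial apoE and 12.998, 12.99 and 13.01 with astrocytic apoE. The water channel Aqp4 was at 12.90, 12.83 and 12.90 with microglial and 13.32, 13.31 and 13.23 with astrocytic apoE, and the folate enzyme gene Aldh1l1 at 11.30, 11.29 and 11.29 and 11.42, 11.45 and 11.46 in the same order. Thus Gfap differed more than Aldoc, and Aldh1l1 less. The marker that rose was Slc1a3, at 14.69, 14.68 and 14.70 with microglial and 14.60, 14.60 and 14.58 with astrocytic apoE. Of 14 proliferation markers 12 fell and 0 rose, and they summed to 4676 to 4711 with microglial and 5767 to 5780 with astrocytic apoE. These are bulk libraries, in which fewer astrocytes and less RNA of a gene per astrocyte cannot be told apart. The part of astrocyte content in the values of Aldoc and of the other members was not tested. Markers of microglia, the source of one kind of particle, were low: Tmem119 lay at 1.11 to 1.12 and P2ry12 at 2.19 to 2.22 in all libraries, and the 19 markers summed to 911 to 916 with microglial and 873 to 891 with astrocytic apoE. Of the 15 tested, 3 rose and 0 fell, a called share below the 24.8% of all tested genes. Of 9 tested oligodendrocyte lineage markers 1 rose and 3 fell, with sums of 6621 to 6785 with microglial and 6515 to 6819 with astrocytic apoE.

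**Figure D2:**
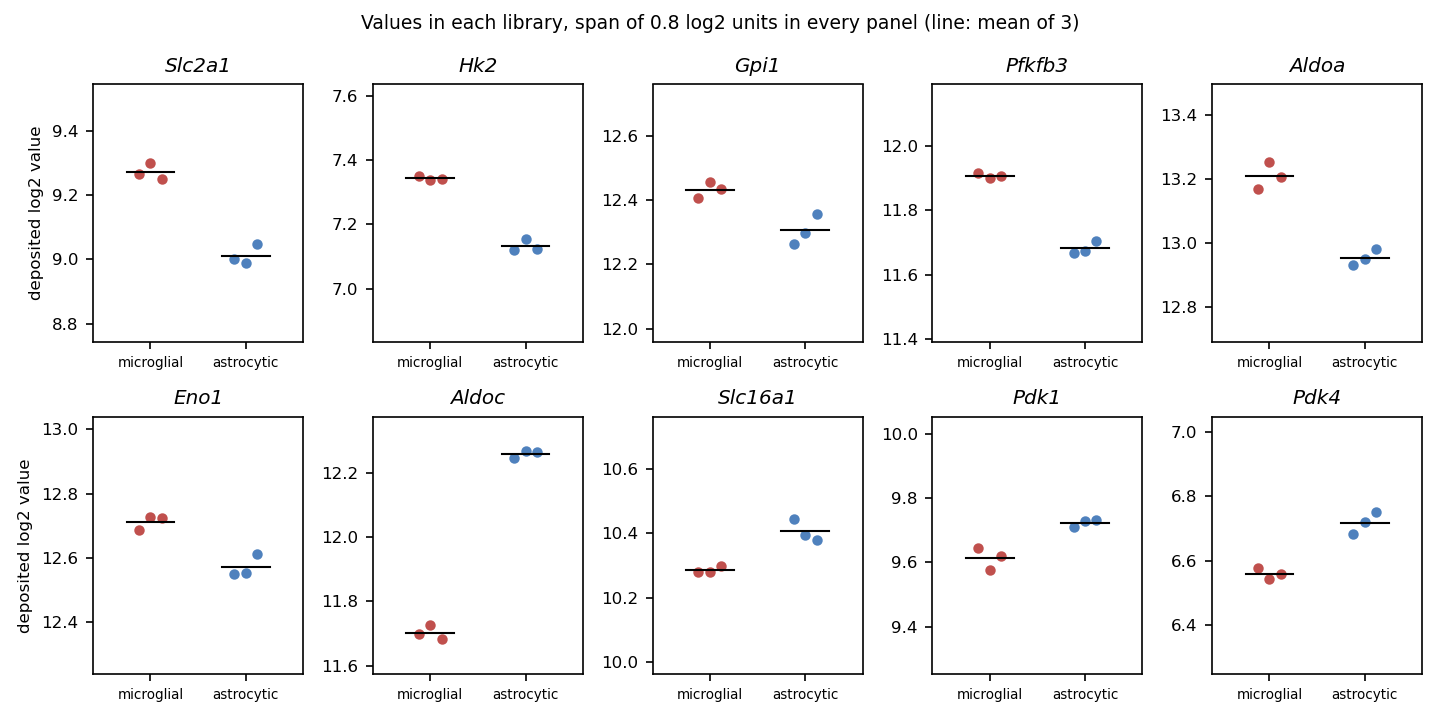
Deposited log2 value (y axis, a span of 0.8 in every panel) in each of the 3 microglial apoE libraries (left, red) and 3 astrocytic apoE libraries (right, blue) for the 10 members whose call held in all alternatives. The groups do not overlap in any panel, and Aldoc shows the widest gap, in the direction opposite to Aldoa.

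Triose phosphate isomerase and glyceraldehyde phosphate dehydrogenase follow aldolase and moved apart by little. Tpi1 had 11.42, 11.45 and 11.40 in microglial apoE libraries and 11.50, 11.49 and 11.53 in astrocytic apoE libraries and fell by 0.08 on the log2 scale (SE 0.027, limma adjusted p = 0.023). This call was lost with equal sums of linear values (adjusted p = 0.064), without microglial replicate 1 (adjusted p = 0.079), without microglial replicate 3 (adjusted p = 0.11), without astrocytic replicate 1 (adjusted p = 0.054) and without astrocytic replicate 2 (adjusted p = 0.056). Gapdh, at 14.33, 14.38 and 14.31 with microglial and 14.25, 14.25 and 14.29 with astrocytic apoE, rose 1.05-fold (0.08 ± 0.026 SE as log2 fold change, with adjusted p = 0.035 in limma). Gapdh is often used as a constant reference gene, and its call here was among the least stable of the set. It was lost with median centring (adjusted p = 0.087), with equal sums leaving out mitochondrial genes (adjusted p = 0.060), in limma without its trend and robust options (adjusted p = 0.055), with a replicate block (adjusted p = 0.083), without microglial replicate 1 (adjusted p = 0.084), without microglial replicate 2 (adjusted p = 0.087), without astrocytic replicate 1 (adjusted p = 0.14) and without astrocytic replicate 2 (adjusted p = 0.16). The strand setting of the counting is not given in the sources used here, so reads of a member and of a gene on the other strand cannot be told apart. Tpi1 overlaps Spsb2 and Gapdh overlaps Iffo1 in this way, and neither partner was called (log2 fold changes -0.00097 and 0.056). The same holds for Senp1 beside Pfkm, Yod1 beside Pfkfb2, Fam57b beside Aldoa and Map3k15 beside Pdha1, with log2 fold changes of -0.0054 to 0.040, while Pitrm1 beside Pfkp rose (0.095, adjusted p = 0.015).

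Of the remaining enzymes down to pyruvate, Eno1 rose and Bpgm fell. Eno1, the enolase of most tissues (chromosome 4, 150236721 to 150248879), was at 12.69, 12.73 and 12.72 with microglial apoE and 12.55, 12.55 and 12.61 with astrocytic apoE, a 1.102-fold rise (0.14 ± 0.027 SE as log2 fold change, with adjusted p = 0.00032 in limma). Eno2, the neuronal enolase, overlapped between groups at 10.77, 10.81 and 10.73 with microglial and 10.76, 10.80 and 10.79 with astrocytic apoE (log2 fold change -0.01, 95% interval -0.074 to 0.046, adjusted p = 0.77). Bpgm, which diverts an intermediate into 2,3-bisphosphoglycerate, fell by 0.10 on the log2 scale, with 9.74, 9.74 and 9.69 in microglial and 9.80, 9.84 and 9.84 in astrocytic apoE libraries (SE 0.029, limma adjusted p = 0.013). Its call was lost without microglial replicate 3 (adjusted p = 0.093) and without astrocytic replicate 2 (adjusted p = 0.070).

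The kinase Pgk1, which makes the first ATP of the pathway, was not called despite libraries that did not overlap, at 11.90, 11.93 and 11.92 with microglial and 11.83, 11.85 and 11.87 with astrocytic apoE (log2 fold change 0.068, limma adjusted p = 0.060). It passed as higher with equal sums of linear values (adjusted p = 0.028), in limma without its trend and robust options (adjusted p = 0.041) and without astrocytic replicate 3 (adjusted p = 0.024). The mutase Pgam1 (95% interval -0.063 to 0.051), the pyruvate kinase gene Pkm (-0.038 to 0.068), and the muscle forms Pgam2 (-0.026 to 0.084) and Eno3 (-0.055 to 0.014) had log2 fold changes near 0, with groups that overlapped and adjusted p of 0.39 to 0.90. Pkm is spliced into forms of different activity, which these gene-level values do not separate. Copies named after members make some values uncertain, because the counting could have divided reads between them: Pgam1-ps2 (mean value 6.81), Pgk1-rs7 (6.66), Eno1b (5.30) and Gapdh-ps15 (3.58) carried signal. None of these 4 copies was called, with log2 fold changes of -0.085, -0.051, -0.027 and 0.0017. Copies of Ldha and Tpi1 were at 2.14 or below and were not tested.

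Lactate dehydrogenase interconverts pyruvate and lactate. Ldha, the subunit that favours lactate formation, was at 12.20, 12.23 and 12.20 with microglial and 12.26, 12.24 and 12.27 with astrocytic apoE, without overlap but not called (log2 fold change -0.044, limma adjusted p = 0.23). Ldhb, the subunit that favours pyruvate formation, had 12.02, 12.10 and 12.02 with microglial apoE and 12.12, 12.14 and 12.14 with astrocytic apoE and fell by 0.08 on the log2 scale (with an SE of 0.028 and adjusted p = 0.027). Microglial replicate 2 lay nearest to the astrocytic group. The call of Ldhb was lost with equal sums of linear values (adjusted p = 0.070), without microglial replicate 1 (adjusted p = 0.13), without microglial replicate 3 (adjusted p = 0.14), without astrocytic replicate 1 (adjusted p = 0.051) and without astrocytic replicate 2 (adjusted p = 0.11).

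Monocarboxylate transporters carry lactate and pyruvate across the membrane. Slc16a1, which encodes MCT1, the transporter of glia and endothelium, fell by 0.12 on the log2 scale, with 10.28, 10.28 and 10.30 in microglial apoE libraries and 10.45, 10.40 and 10.38 in astrocytic apoE libraries (SE 0.028, limma adjusted p = 0.0026). The microglial values were within 0.02 of each other and all below the astrocytic ones. Slc16a7, which encodes the high-affinity neuronal transporter MCT2, was at 7.92, 7.86 and 7.91 with microglial and 7.97, 7.96 and 7.94 with astrocytic apoE (log2 fold change -0.059, adjusted p = 0.16), not called although its libraries did not overlap. Slc16a3, which encodes the lactate exporter MCT4 of glycolytic cells, was the weakest member and close to the filter, with a log2 fold change of 0.0079 (adjusted p = 0.68).

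Pyruvate dehydrogenase kinases switch off the entry of pyruvate into mitochondrial oxidation, and all 4 of their genes were called, 3 lower and 1 higher. Pdk4, the form induced by fasting and fatty acids, fell by 0.16 on the log2 scale, at 6.58, 6.54 and 6.56 with microglial apoE and 6.68, 6.72 and 6.75 with astrocytic apoE (SE 0.026, limma adjusted p = 5.6e-05). Pdk1, a form induced by hypoxia, had 9.64, 9.58 and 9.62 with microglial and 9.71, 9.73 and 9.73 with astrocytic apoE and fell by 0.11 (with an SE of 0.029 and adjusted p = 0.0074). Its direction was opposite to that of Slc2a1, Hk2, Pfkfb3, Aldoa and Eno1, which are hypoxia targets too. Aldoc and Tpi1, also hypoxia targets, fell like Pdk1. Pdk2, the broadly expressed form, had 8.995, 9.02 and 8.97 with microglial and 9.06, 9.08 and 9.14 with astrocytic apoE and fell by 0.10 (with an SE of 0.031 and adjusted p = 0.021), a call lost with equal sums of linear values (adjusted p = 0.053), without microglial replicate 1 (adjusted p = 0.059), without microglial replicate 3 (adjusted p = 0.10) and without astrocytic replicate 3 (adjusted p = 0.074). Pdk3 rose 1.08-fold, at 8.62, 8.61 and 8.63 with microglial and 8.47, 8.47 and 8.58 with astrocytic apoE (0.11 ± 0.033 SE as log2 fold change, with adjusted p = 0.012 in limma). Astrocytic replicate 3 lay close to the microglial libraries, and the call was lost without astrocytic replicate 1 (adjusted p = 0.071) and without astrocytic replicate 2 (adjusted p = 0.088). Neither E1 subunit gene of the dehydrogenase passed. Pdha1 had a log2 fold change of -0.030 (95% interval -0.084 to 0.024, adjusted p = 0.44) and Pdhb one of -0.051 (-0.11 to 0.0056, adjusted p = 0.18), and both had lower values in every microglial apoE library than in any astrocytic one.

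**Figure D3:**
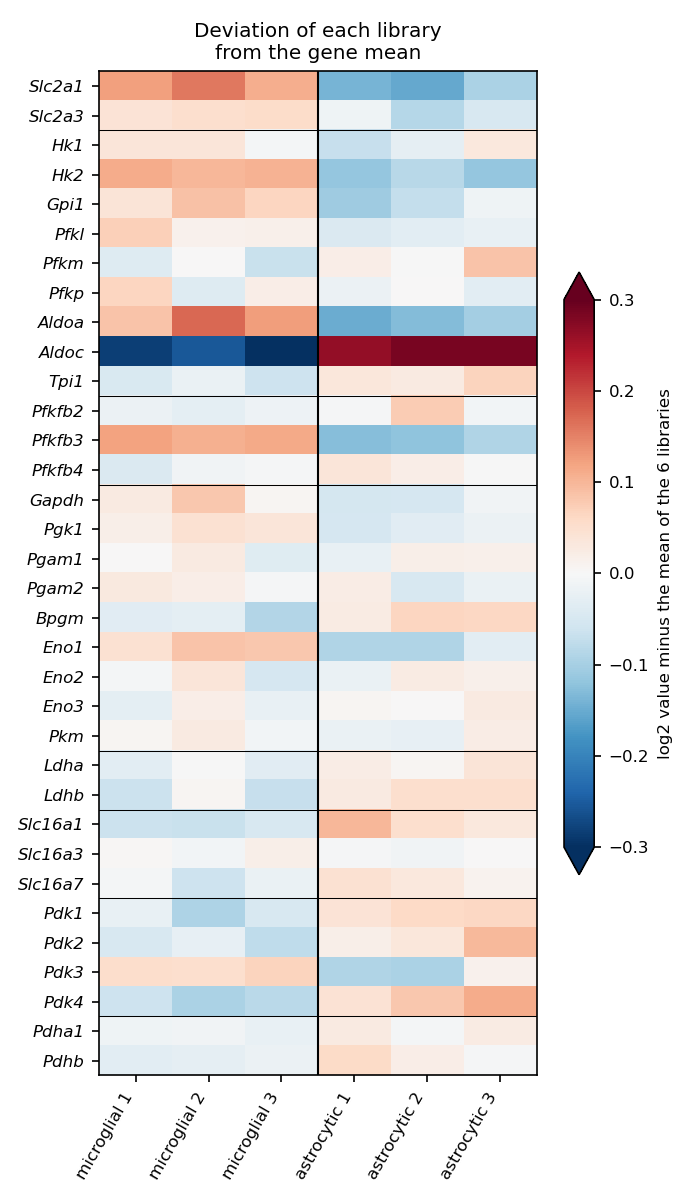
Log2 value of each of the 34 genes minus its mean over the 6 libraries (colour scale -0.3 to 0.3), with the 3 microglial apoE libraries left of the line and the 3 astrocytic apoE libraries right of it. Aldoc and the block of Slc2a1, Hk2, Pfkfb3 and Aldoa separate the groups most, and astrocytic replicate 3 is nearest to the microglial libraries for Hk1, Gpi1 and Pdk3.

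Isoform balance was compared next. The difference between 2 isoforms within a library does not depend on how libraries are scaled, and 8 such pairs were compared with an exact two-sided permutation test. With 3 against 3 libraries the smallest p it allows is 0.10, before or after adjustment over the 8 pairs, so no pair could pass. Aldoc minus Aldoa was -1.47, -1.53 and -1.53 with microglial apoE and -0.69, -0.69 and -0.72 with astrocytic apoE, a shift of -0.81 on the log2 scale (exact p = 0.10, adjusted 0.16). The ratio of Aldoc to Aldoa was thus 1.75 times lower with microglial apoE, with groups that did not overlap. Eno1 minus Eno2 stood at 1.91, 1.91 and 1.99 with microglial and 1.79, 1.75 and 1.82 with astrocytic apoE, a shift of 0.15 towards the general enolase. Hk2 minus Hk1 (-4.60, -4.61 and -4.57 with microglial, -4.72, -4.73 and -4.82 with astrocytic apoE) shifted by 0.17 and Slc2a1 minus Slc2a3 (-1.79, -1.76 and -1.82 with microglial, -2.0, -1.94 and -1.92 with astrocytic apoE) by 0.16. For Slc16a1 minus Slc16a7 the shift was -0.061. In these 5 pairs the groups did not overlap, each with exact p = 0.10 and adjusted p = 0.16. Each of them holds a called member, so this separation is not independent of the single-gene calls. A share for pairs of other genes was not computed. The pairs Ldha minus Ldhb (0.040, exact p = 0.20, adjusted 0.27), Pfkp minus Pfkm (0.10, exact p = 0.30, adjusted 0.34) and Pdk1 minus Pdk2 (-0.010, exact p = 0.90) overlapped.

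**Figure D4:**
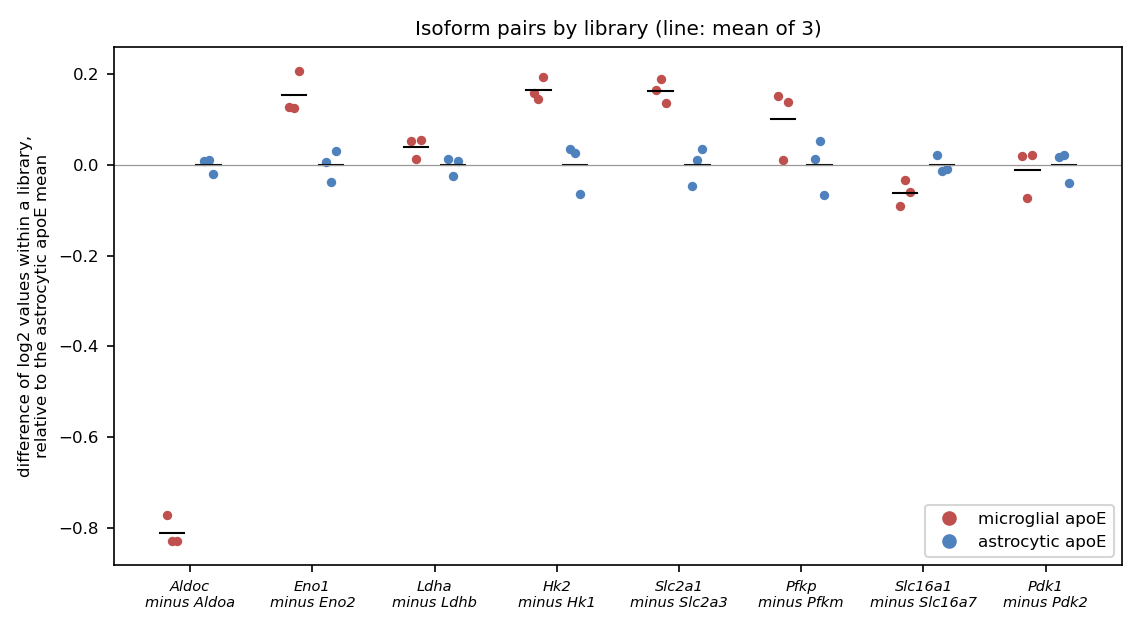
Difference of the log2 values of 2 isoforms within each library, set relative to the astrocytic apoE mean of the pair (y axis, log2), for 3 microglial apoE (red) and 3 astrocytic apoE (blue) libraries. The aldolase pair shifts by -0.81, and the enolase, hexokinase and glucose transporter pairs by 0.15 to 0.17.

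Genes around the pathway were read from the same fit. In the pentose phosphate pathway, which draws glucose 6-phosphate off to make NADPH, 3 of 12 genes rose and 0 fell (median log2 fold change 0.034): Taldo1 (0.21 ± 0.031 SE), Tkt (0.12 ± 0.028 SE) and G6pdx, the gene of its first enzyme (0.11 ± 0.029 SE). Glycogen genes went both ways, with 4 of 19 higher and 5 lower (median -0.017). The brain glycogen phosphorylase Pygb fell, at 12.02, 12.004 and 12.03 with microglial and 12.24, 12.25 and 12.31 with astrocytic apoE (-0.25 ± 0.027 SE as log2 fold change, with adjusted p = 1.1e-07 in limma), as did Ugp2, which makes the glucosyl donor (-0.20 ± 0.034 SE), while the lysosomal glucosidase Gaa rose (0.16 ± 0.029 SE). Among other pyruvate and monocarboxylate genes 3 of 23 rose and 2 fell (median -0.00011). Pyruvate carboxylase (Pcx), which feeds pyruvate into the citric acid cycle and is known from astrocytes, fell by 0.23 on the log2 scale (with an SE of 0.029 and adjusted p = 1.3e-06). Malic enzyme 1 (Me1) rose (0.11 ± 0.026 SE).

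In the tricarboxylic acid cycle 2 of 20 genes rose and 2 fell (median 0.013), led by the cytosolic isocitrate dehydrogenase Idh1 (-0.22 ± 0.028 SE) and the succinate dehydrogenase subunit Sdhb (0.12 ± 0.032 SE). Of 16 other genes of glucose transport and hexose phosphorylation 0 rose and 1 fell, Pgm2l1 (-0.15 ± 0.033 SE), a brain form of the phosphoglucomutase family. Of 11 other glycolytic and glycerol phosphate genes 0 rose and 2 fell, the glycerol phosphate dehydrogenases Gpd2 (-0.10 ± 0.027 SE) and Gpd1 (-0.093 ± 0.029 SE). The called share of pentose phosphate genes (3 of 12) was practically the 24.8% of all tested genes. Only that of glycogen genes was clearly above it, and those of the other 4 lists were below it.

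Regulators and targets of the hypoxia response split in direction. Of 19 members marked here as hypoxia targets, a marking that may be incomplete, 8 rose and 3 fell (median 0.065). Of the other 15 members 1 rose and 5 fell (median -0.051), where 13.0% of all tested genes rose and 11.8% fell. The difference between these 2 subsets was not tested. Outside glycolysis, 5 of 19 tested hypoxia targets rose and 5 fell (median 0.033). The angiogenic factor Vegfa, at 11.40, 11.43 and 11.42 with microglial and 10.998, 11.01 and 11.07 with astrocytic apoE, rose 1.31-fold (0.39 ± 0.028 SE as log2 fold change, with adjusted p = 6.4e-11 in limma), and the prolyl hydroxylase P4ha1 (0.28 ± 0.030 SE) and the oxidoreductase Ero1l (0.24 ± 0.034 SE) rose less. The other 2 that rose were the stress gene Ddit4 (0.21 ± 0.032 SE) and the transcription factor gene Bhlhe40 (0.13 ± 0.031 SE). The 5 that fell were the mitophagy genes Bnip3 (-0.15 ± 0.028 SE) and Bnip3l (-0.12 ± 0.029 SE), the adenylate kinase gene Ak4 (-0.11 ± 0.030 SE), Ndrg1 (-0.095 ± 0.027 SE) and the oxygen sensor gene Egln3 (-0.087 ± 0.029 SE). These 7 genes were named after their values were seen. Hif1a itself, which encodes an oxygen-regulated subunit, rose (0.16 ± 0.030 SE, limma adjusted p = 0.00022), one of 4 of 21 regulators that rose, with 3 that fell. Among those that fell was Epas1, which encodes another such subunit (-0.15 ± 0.035 SE, limma adjusted p = 0.0018). Txnip, a glucose-responsive inhibitor of glucose uptake, rose (0.17 ± 0.027 SE), and Mycn fell (-0.12 ± 0.028 SE). The hypoxia factor is regulated mainly at the protein level, which these libraries do not measure.

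**Figure D5:**
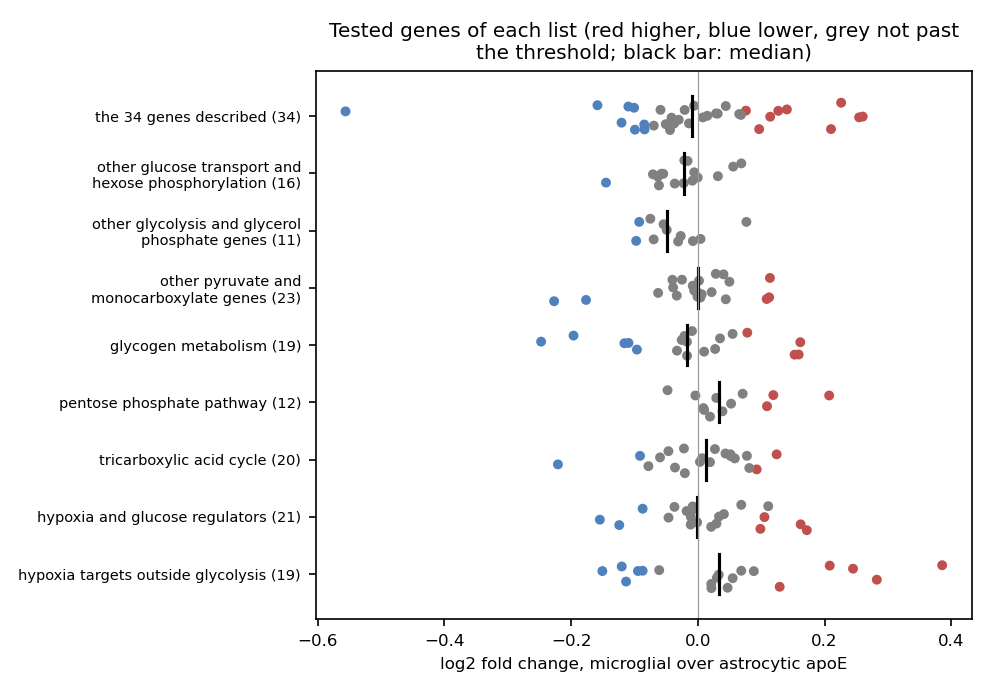
Log2 fold change, microglial over astrocytic apoE (x axis), of every tested gene in the 34-gene set and in 8 lists of related genes, with the number tested in parentheses and black bars at the medians. The medians lie near 0 in each list, and called genes lie on both sides except in the pentose phosphate, other glucose transport and other glycolysis lists.

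Added over the 34 members, the values amounted to 0.578, 0.590 and 0.575 percent of the sum of linear values in the microglial apoE libraries and 0.555, 0.559 and 0.575 percent in the astrocytic apoE libraries. Astrocytic replicate 3 reached the level of the lowest microglial library. The total includes mitochondrially encoded genes, whose share differed between groups. The linear values of the members alone added up to 104502, 106878 and 104147 with microglial apoE. With astrocytic apoE they added up to 101892, 102206 and 104506, so the groups overlapped.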

How the data were processed

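RNA of 6 neuron libraries, 3 per kind of apoE particle, was sequenced. The deposited values are on a log2 scale, 1 per gene symbol. GRCm38, HISAT2, featureCounts, DESeq2 and FastQC appear, without roles, in the submitters' processing notes. Their versions and the transformation used were not given in the sources used here. A count test could not be used, and the depth behind each value is unknown. Groups came from the labels.

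Values were tested with limma 3.58.1 (R 4.3.3, trend and robust options) on genes with linear values (2 to the power of the deposited value) of about 10 or more in at least 3 libraries, microglial over astrocytic apoE, with Benjamini-Hochberg adjustment over all 15059 genes and a call at an adjusted p under 0.05. Isoform differences were tested with an exact permutation test (scipy 1.17.1). The script was tested on simulated data. Promoters came from RefSeq and gene positions from a GRCm38 annotation. Lengths are merged exons. The alternatives were no filter, a filter at 50 on the linear scale, 3 scalings, plain limma, a replicate block and leaving out each library. Epas1 was named after its value was seen, outside the rule that follows. From each related list at most 3 called genes with the smallest p were named, except that all called hypoxia targets outside glycolysis are given. A gene among these is not reported here. The members, the lists of related genes and the markers were chosen with earlier results of these data known.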

Additional observations from a re-analysis of the deposited data

How the results depend on the processing

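Of 17 called members, 10 kept call and direction in all 13 alternatives, 7 lost the call in at least 1 and 0 reversed. Median centring gave 2767 lower genes (1780 as deposited), and equal sums of linear values gave 5 lower members (8 as deposited). Leaving out 1 library gave 6 to 11 higher and 4 to 9 lower members, 1368 to 2374 higher and 1188 to 2167 lower genes, and -0.030 to 0.021 for Pdk1 minus Pdk2. Members that were not called and changed sign were Pgam1 (0.0076 with equal sums, -0.020 to 0.011 without 1 library), Eno2 (-0.035 to 0.0075 without 1 library), Pkm (-0.0035 with median centring) and Slc16a3 (-0.011 with median centring, -0.0023 with equal sums leaving out mitochondrial genes). The cause of these shifts was not tested. A filter at 50 removed Eno3 and Slc16a3, leaving 32 members.

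Same-numbered libraries did not deviate together (correlations 0.039, -0.12 and -0.19, against -0.12 to 0.18 for differently numbered ones). Deviations around means of 3 libraries cannot show whether libraries shared a culture, so pairing by number stays unknown. The replicate block gave 1779 higher and 1609 lower genes and 8 higher and 8 lower members, Gapdh being the call lost. Isoform differences (-0.81 for Aldoc minus Aldoa) could not change with it. The mean of same-numbered differences equals the difference of group means, so the block does not show their stability. Depth is unknown, the transformation is inferred, and differences under 0.1 on the log2 scale rest on a small spread between 3 libraries.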
